A study of Mus musculus with 7 samples.

Results

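The genes described here are 9 basic leucine zipper transcription factors of the MAF and CNC families, read as rows of a gene count table from liver endothelial cells of mice. They are the large MAF gene Maf, the small MAF genes Mafg, Maff and Mafk, the CNC genes Nfe2, Nfe2l1 and Nfe2l2, and the related repressor genes Bach1 and Bach2. Members were chosen by family and matched by symbol, and all 9 were found among the 52636 genes of the table. The rule is family membership and uses no measured value, but it was set with earlier results of these data known. The libraries are 4 labelled c-Maf KO (KO, knockout; Maf encodes c-Maf) and 3 labelled Control, each of sorted liver endothelium. The labels and notes used here do not state strain, age, sex, the deleted part of Maf, the driver of the deletion or the exact genotype of the controls. Nothing in the labels says that libraries came from separate animals, so the p-values rest on spread among libraries whose independence is not known. Libraries of the same group differed by more than sampling noise, with a chi-square per degree of freedom of at least 14.9.

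Large MAF proteins such as c-Maf carry an activation domain and bind MAF recognition elements as homodimers or with AP-1 proteins. The small MAF proteins MAFG, MAFF and MAFK lack an activation domain. They bind DNA as repressive homodimers or as partners of CNC and BACH proteins, which cannot bind without them. NRF2 (gene Nfe2l2) is held low by KEAP1 and activates antioxidant genes, NRF1 (Nfe2l1) matures from the endoplasmic reticulum membrane and drives proteasome genes, NF-E2 p45 (Nfe2) acts in platelet formation, BACH1 represses heme oxygenase until heme displaces it, and BACH2 is best known in lymphocytes. In liver, c-Maf is known as a transcription factor of sinusoidal endothelium.

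All 9 members are protein-coding genes of build GRCm38. Maf lies at chr8:115682942-115707794 on the minus strand. Mafg lies at chr11:120625117-120633600 (minus), Maff at chr15:79346621-79359076 (plus) and Mafk at chr5:139791513-139802653 (plus). Nfe2 is at chr15:103248212-103258403, Nfe2l1 at chr11:96817414-96829968 and Nfe2l2 at chr2:75675513-75704641, each on the minus strand. Bach1 is at chr16:87698945-87733346 and Bach2 at chr4:32238804-32586108, both on the plus strand. Exons of 4 members overlap exons of another gene, by 5.34% of exon length for Maf (antisense Gm15655), 2.21% for Mafg (Sirt7), 4.33% for Mafk (Tmem184a) and 5.4% for Bach2 (antisense Bach2os). The sources used here do not give the strand setting of the counting, so reads in the stretches of Maf, Mafk and Bach2 cannot be assigned with certainty. Mafg and Sirt7 lie on the same strand, so no strand setting would separate reads in their shared stretch. Gm15655 had 0 counts in all 7 libraries, which allows up to 0.0873 to 0.132 CPM per library at 3 counts, and Sirt7 differed by a log2 fold change of -0.00 (SE 0.0871, adjusted p = 0.979).

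Because the small MAF genes are themselves known as targets of CNC and small MAF dimers, their promoters are shown with the core of the antioxidant response element, TGACNNNGC. Promoter windows of RefSeq (build GRCm38.p6, 250 bases before to 50 after each start) matched 7 of 9 members with 13 windows. TGACNNNGC on either strand was in a window of each small MAF gene and of Nfe2l2, and in 12.4% of all 32851 promoter windows. The MAF core motif TGCTGAC was at 1 site of Nfe2l1 that 3 of its overlapping windows share. Counted by gene, TGACNNNGC was in a window of 14% of all 27025 genes and TGCTGAC of 5.28%. The 2 motifs did not overlap in any member's window. The windows with a TGACNNNGC match are chr11:120633498-120633797 (minus strand) for Mafg, chr15:79346371-79346670 (plus) for Maff, chr5:139791286-139791585 (plus) for Mafk and chr2:75704614-75704913 (minus) for Nfe2l2. Capitals mark the match, which reads on the opposite strand in Mafg and Mafk.
Mafg: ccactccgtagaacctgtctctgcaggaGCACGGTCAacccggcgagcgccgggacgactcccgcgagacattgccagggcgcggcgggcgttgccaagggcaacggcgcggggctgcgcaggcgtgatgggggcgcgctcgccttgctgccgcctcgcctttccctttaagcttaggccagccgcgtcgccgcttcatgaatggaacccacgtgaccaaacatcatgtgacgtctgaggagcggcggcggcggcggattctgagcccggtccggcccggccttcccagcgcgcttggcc
Maff: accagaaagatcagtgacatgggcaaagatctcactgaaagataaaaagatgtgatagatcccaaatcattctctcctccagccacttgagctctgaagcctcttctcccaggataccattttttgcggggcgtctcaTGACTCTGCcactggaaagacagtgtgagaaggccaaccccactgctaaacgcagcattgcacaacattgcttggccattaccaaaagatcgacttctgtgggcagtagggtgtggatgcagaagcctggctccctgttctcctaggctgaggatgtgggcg
Mafk: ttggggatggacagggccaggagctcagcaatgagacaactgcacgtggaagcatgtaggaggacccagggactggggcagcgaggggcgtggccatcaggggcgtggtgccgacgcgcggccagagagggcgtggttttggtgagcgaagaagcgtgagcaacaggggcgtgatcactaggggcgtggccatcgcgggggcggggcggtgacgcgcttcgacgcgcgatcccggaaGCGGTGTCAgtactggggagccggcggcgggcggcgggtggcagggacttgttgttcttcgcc
Nfe2l2: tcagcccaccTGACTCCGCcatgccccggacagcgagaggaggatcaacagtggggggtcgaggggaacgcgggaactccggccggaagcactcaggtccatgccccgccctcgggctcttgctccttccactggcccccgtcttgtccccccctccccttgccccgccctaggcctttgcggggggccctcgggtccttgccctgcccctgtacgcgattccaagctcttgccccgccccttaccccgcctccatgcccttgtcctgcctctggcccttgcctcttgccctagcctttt
A match to these letters is a description of the window and does not show binding.

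Libraries held 24772716 to 32960007 counts. Levels below are CPM, that is counts relative to library size with TMM factors (trimmed mean of M-values), and RPKM is that CPM per kilobase of merged exon length. Sinusoidal endothelial markers were abundant in both groups, with 12675 to 18959 summed CPM over 11 genes in KO libraries and 38279 to 41767 in controls. Of these 11 genes 9 fell and 0 rose, where 22.2% of all genes tested fell and 23.0% rose. Their log2 fold changes ran from -3.20 to -0.10 around a median of -1.04. Pecam1 stood at 886 ± 218 CPM in the KO and 1374 ± 89.9 CPM in controls (SD, n = 4 and 3). Cdh5 and Emcn, named after their values were seen, did not pass (edgeR adjusted p = 0.0935 and 0.536). Hepatocyte markers were highest in KO 1 and KO 4 (1501 and 701 summed CPM over 10 genes), with 354 and 413 in KO 2 and KO 3 and 278 to 316 in controls. Of these 10 genes 6 rose and 0 fell, at a median log2 fold change of 1.52. With each library left out in turn 0 to 9 of them rose. Of 8 tested stellate cell and fibroblast markers 5 fell (list median -1.63 on the log2 scale), and their list summed to 7.23 to 36.9 CPM in the KO and 14.7 to 125 CPM in controls. Of 11 macrophage and Kupffer cell markers 1 rose and 1 fell, at 49.2 to 176 and 94.1 to 228 summed CPM in KO and control. The part of these cells in the members' values was not tested. Dissociation stress genes, such as Fos and Jun, stood, as the list's median, at 242, 218, 139 and 159% of control in KO 1 to 4. Of the 17 genes of this list 9 rose and 0 fell, at a median log2 fold change of 0.99. With each library left out in turn 7 to 14 of them rose.

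Across the family, 8 of 9 members differed between KO and control, 3 rising and 5 falling. All 9 passed the filter on low counts. Of all 15512 genes tested by edgeR's quasi-likelihood test, 45.2% had an adjusted p under 0.05, with 23.0% rising and 22.2% falling. For that reason the members' share of calls is a count and not a test. The groups' libraries did not overlap in 8 of 9 members, against 50.3% of all genes tested. In 2 members, Maff and Mafk, every KO library was above every control, as in 25.6% of all genes, and in 6 every KO library was below, as in 24.7% of all genes. Of the calls over all genes, 50.8% were rises under TMM, against 63.4% under upper-quartile factors and 76.3% under library totals, and those scalings moved the median log2 fold change of all genes to 0.17 and 0.31 from 0.04. Each member kept its direction under those scalings, while Nfe2l2 came to -0.03 with library totals. Restricting the fit to sequencing lane 5, with 3 KO and 2 control libraries, gave 3 members that rose and 6 that fell. KO 3 and control 3 were the lane 4 libraries, which alone allow no test. The bulk counts cannot tell fewer cells of a type from less RNA per cell.

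**Figure D1:**
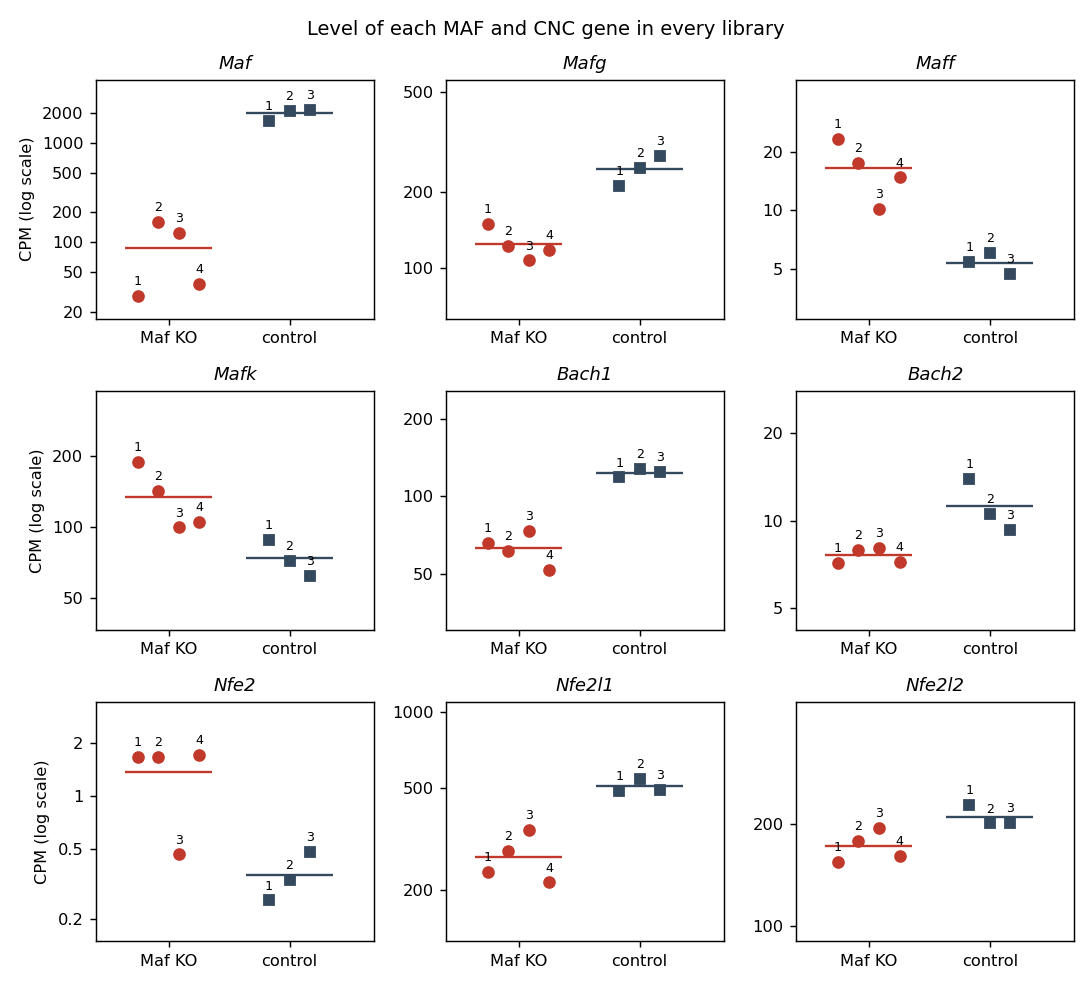
Level of each of the 9 genes in CPM (log scale) in each Maf KO library (red circles) and control library (dark squares), numbered by replicate, with a line at the group mean. Points of the groups are separate in 8 panels and overlap in Nfe2, where KO 3 lies among the controls.

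Maf itself was reduced to a small remainder that differed between KO libraries. Its counts were 816, 4882, 4278 and 1278 in KO 1 to 4, against 45711, 50142 and 48948 in controls 1 to 3. Per exon length this was 3.50, 19.3, 15.1 and 4.58 RPKM in the KO and 202, 253 and 261 RPKM in controls. KO 2 and KO 3 thus kept several times more Maf reads than KO 1 and KO 4, and every KO library lay far below every control. The log2 fold change was -4.49 (SE 0.576, 95% interval -5.79 to -3.19, edgeR adjusted p = 0.000347), which ranked 65 by size among all genes tested. Since the deleted part is not given, reads outside it would not check the label, and where in Maf the remaining reads lie was not tested.

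Per length, the order of the members in KO libraries was Nfe2l1, Nfe2l2, Mafk, Mafg, Maf, Bach1, Maff, Bach2 and Nfe2, and each of the 6 highest overlapped with the next. Nfe2l1 led there at 49.3 ± 10.5 RPKM, Nfe2l2 followed at 45.2 ± 4.77 RPKM and Maf was in place 5 at 10.6 ± 7.80 RPKM (SD, n = 4). In controls Maf was the most abundant member, at 239 ± 31.9 RPKM (SD, n = 3). Nfe2l1 at 93.7 ± 5.94, Nfe2l2 at 55.2 ± 4.00 and Mafg at 43.9 ± 6.06 RPKM followed it, each without overlap with its neighbour in the order. Bach1 (20.0 ± 0.791 RPKM) and Mafk (19.0 ± 3.31 RPKM) overlapped in controls. The lowest members in controls were Maff at 2.08 ± 0.251, Bach2 at 1.13 ± 0.241 and Nfe2 at 0.119 ± 0.0387 RPKM. With the length of the longest transcript in place of merged exons, 7 of 9 members kept their place in each group, the exceptions being Nfe2l1 and Nfe2l2 in the KO and Bach1 and Mafk in controls, which changed places.

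The 3 small MAF genes did not move together. Mafg, the most abundant of them in controls, had 149.9, 122, 107 and 118 CPM in KO 1 to 4, against 211, 250 and 279 CPM in controls 1 to 3. Every KO library was below every control. Mafg fell 1.98-fold (log2 fold change -0.99, SE 0.137, edgeR adjusted p = 0.000537). Maff, a small MAF known to be induced by stress and inflammatory signals, had 23.3, 17.5, 10.2 and 14.7 CPM in KO 1 to 4, against 5.42, 6.04 and 4.74 CPM in controls. All KO libraries were higher, KO 3 the least. Maff rose 3.04-fold (log2 fold change 1.60, SE 0.262, adjusted p = 0.00125).

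Mafk, the small MAF first described as a partner of NF-E2 p45, had 189, 142, 99.6 and 105 CPM in KO 1 to 4, against 87.8, 71.8 and 62.2 CPM in controls. The groups did not overlap, but KO 3 lay close to control 1. Mafk rose 1.81-fold (log2 fold change 0.86, SE 0.226, edgeR adjusted p = 0.0134). The call was lost without control 2 (adjusted p = 0.0518) or control 3 (0.0521). Without KO 1 and KO 2 together, the libraries highest in dissociation stress genes, the log2 fold change of Mafk was 0.47 (adjusted p = 0.0516), and that of Maff was 1.20 (adjusted p = 0.00475).

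The KO libraries ranked KO 1, KO 2, KO 4 and KO 3 from high to low in all 3 small MAF genes. The 17 dissociation stress genes, by their median, had that order too. Among all tested genes 6.21% had this order, and 10.8% of genes that rose and 1.51% of genes that fell had it. No other member did. Stress genes and 2 of the small MAF genes thus were high in the same KO libraries, while Mafg was lower in all 4 of them than in controls, and the part of stress in these values was not tested.

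The make-up of the small MAF transcripts differed between the groups more than their sum. Per exon length the sum of the 3 genes was 84.2, 65.1, 48.5 and 53.7 RPKM in KO 1 to 4, against 62.1, 65.3 and 67.4 RPKM in controls, so the sums overlapped. Mafg made up 35.9 ± 3.87% of the sum in the KO and 67.4 ± 6.64% in controls (SD, n = 4 and 3). Mafk made up 54.2 ± 3.30% in the KO and 29.4 ± 6.35% in controls. Maff made up 9.92 ± 1.24% in the KO and 3.21 ± 0.448% in controls. The ratio of Mafk to Mafg was 1.82, 1.68, 1.34 and 1.29 in KO 1 to 4, against 0.599, 0.413 and 0.321 in controls. These shares and ratios do not depend on how libraries are scaled. The ratio was above 1 in every KO library and below 1 in every control. Maf stood at 0.0416 to 0.311 times the small MAF sum in the KO and at 3.25 to 3.88 times it in controls.

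**Figure D2:**
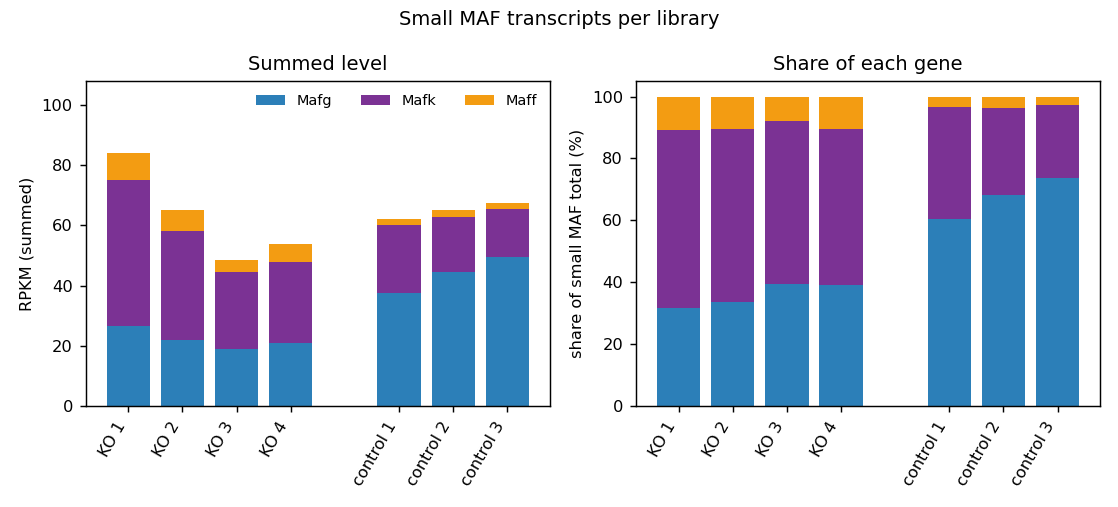
Summed RPKM of Mafg, Mafk and Maff in each library (left) and the share of each gene in that sum in percent (right), with the 4 Maf KO libraries before the 3 controls. The sums overlap between groups, while Mafg holds 31.7 to 39.3% of the sum in KO libraries and 60.4 to 73.6% in controls.

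Among the CNC activators, Nfe2l1 fell, Nfe2l2 narrowly missed the threshold and Nfe2, very low in both groups, rose. Nfe2l1 had 235, 284, 342 and 213 CPM in KO 1 to 4, against 488, 547 and 494 CPM in controls. Every KO library was lower, KO 3 the least. Nfe2l1 fell 1.90-fold (log2 fold change -0.92, SE 0.161, edgeR adjusted p = 0.00174). Nfe2l2, the gene of NRF2, had 154, 178, 194 and 160 CPM in KO 1 to 4, against 227, 200.2 and 201 CPM in controls. All KO libraries lay below all controls, with KO 3 close to controls 2 and 3. Its log2 fold change was -0.29 (SE 0.107, unadjusted 95% interval -0.53 to -0.05), with an adjusted p of 0.0539 by edgeR and 0.0203 by DESeq2. Without KO 3 the log2 fold change was -0.37 and passed (adjusted p = 0.0137), and in lane 5 alone it was -0.43 (adjusted p = 0.0148). By edgeR Nfe2l2 did not pass with upper-quartile factors (-0.16, adjusted p = 0.177) or library totals (-0.03, adjusted p = 0.833). Nor did it pass without control 1 (-0.23, adjusted p = 0.173). The per-length ratio of Nfe2l1 to Nfe2l2 was 0.929 to 1.23 in KO libraries and 1.50 to 1.91 in controls, which does not depend on scaling.

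Nfe2 counts were 47, 51, 16 and 58 in KO 1 to 4, against 7, 8 and 11 in controls, or 1.66, 1.66, 0.466 and 1.71 CPM against 0.255, 0.333 and 0.482 CPM. KO 3 lay among the controls. Nfe2 rose 3.84-fold (log2 fold change 1.94, SE 0.501, edgeR adjusted p = 0.0122), and at 2.46 the change was larger in lane 5 alone (adjusted p = 0.00119). Without KO 1 and KO 4 together its adjusted p was 0.0868, at a log2 fold change of 1.56. Of 10 markers of megakaryocytes and platelets, cells that use NF-E2 p45, 8 were tested, 5 rose and 1 fell. Of all genes tested 23.0% rose and 22.2% fell. Gp1bb, Gp5 and Gp9 of the rises had 9, 13 and 13 counts over all controls and 68, 163 and 128 over the KO. Pf4 did not pass, at a log2 fold change of -0.57 (edgeR adjusted p = 0.103). These genes were named after their values were seen. The 10 markers summed to 47.6, 43.0, 36.2 and 52.8 CPM in KO 1 to 4 and 24.9, 28.0 and 26.8 CPM in controls. Itga2b alone had 29.5 ± 3.92 CPM of this in the KO and 12.6 ± 1.38 CPM in controls. KO 3 was the lowest KO library by the sum. By the list's median KO 2 was the lowest, with 420, 227, 248 and 432% of control in KO 1 to 4. Of 9 erythroid markers 5 were tested, and their summed level was 40.1, 7.62, 5.94 and 21.8 CPM in KO 1 to 4 and 10.2, 4.00 and 2.63 CPM in controls. None of the 5 passed edgeR's test, with 3 higher at an unadjusted p under 0.05, 1 higher by DESeq2 and 0 by limma-voom. The part of such cells in the Nfe2 value was not tested.

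Both repressor genes fell. Bach1 had 66.0, 61.3, 73.4 and 51.7 CPM in KO 1 to 4, against 119, 128 and 124 CPM in controls. The groups were far apart, and the controls varied least of all members, with a coefficient of variation of 3.95%. Bach1 fell 1.96-fold (log2 fold change -0.97, SE 0.115, edgeR adjusted p = 0.000222). Bach2 had 7.18, 7.94, 8.06 and 7.23 CPM in KO 1 to 4, against 13.9, 10.6 and 9.30 CPM in controls. The groups did not overlap, and control 1 was the highest library. Bach2 fell 1.48-fold (log2 fold change -0.57, SE 0.155, edgeR adjusted p = 0.0157). Without control 1 the call was lost (-0.39 on the log2 scale, adjusted p = 0.065), as it was with library totals (-0.30, adjusted p = 0.125). B cell markers, cells in which BACH2 is abundant, summed to 1.80 to 3.01 CPM in KO libraries and 2.37 to 4.73 CPM in controls over 7 genes. The part of B cells in the Bach2 value was not tested. The per-length ratio of Bach1 to Nfe2l2 was 0.198 to 0.263 in KO libraries and 0.321 to 0.394 in controls, without overlap.

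**Figure D3:**
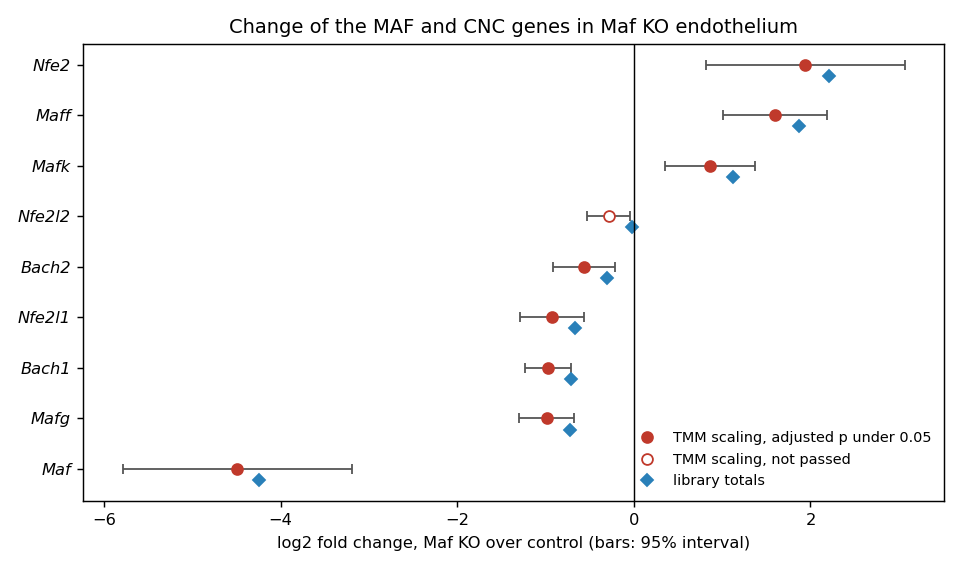
Log2 fold change of each gene, Maf KO over control, with TMM scaling (circles, filled where the adjusted p is under 0.05; bars are 95% intervals) and with library totals (diamonds). Nfe2, Maff and Mafk lie above 0 and the other 6 genes below it under both scalings, with Nfe2l2 at -0.03 with library totals.

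KO 3 lay nearest to the control mean of the 4 KO libraries for 7 of 9 members, all but Maf, where it was KO 2, and Mafg, where it was KO 1. KO 3 was also nearest for 60.3% of the 7009 called genes and for 47.8% of all genes tested, so this is shared widely. Genes with the profile nearest to Maf over the 7 libraries, by root mean square difference of log2 CPM relative to the control mean among genes of at least 3 average log2 CPM, were Gpc1 (0.276), Slc39a8 (0.295), Il13ra2 (0.337), Slc7a8 (0.447) and Dkk3 (0.583). Gpc1, a glypican, stood at 1.40, 9.34, 9.18 and 2.51% of its control mean in KO 1 to 4, where Maf stood at 1.47, 8.08, 6.33 and 1.92%. Dkk3, of the dickkopf family, stood at 1.18, 14.3, 14.2 and 2.02%. All 5 were higher in KO 2 and KO 3 than in KO 1 and KO 4, as Maf was, which their choice by likeness to Maf favours. The sinusoidal endothelial list was split in the same way, with medians of 38.1, 51.3, 62.5 and 43.0% of control in KO 1 to 4. The likeness of the 5 genes to Maf is over 7 libraries of 2 groups and says nothing of shared control.

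**Figure D4:**
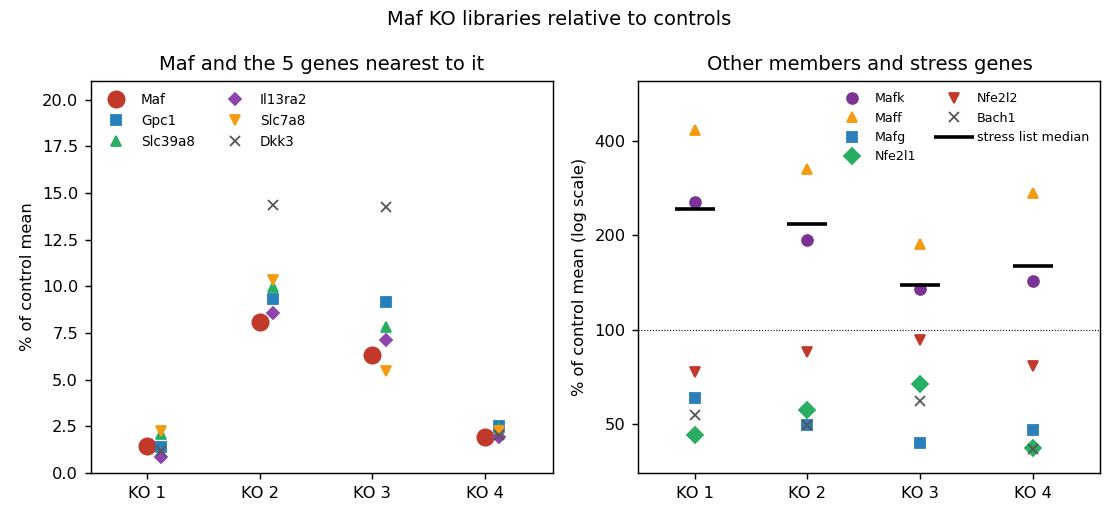
Level in each of the 4 Maf KO libraries as a percent of the control mean, for Maf and the 5 genes with the nearest profile (left) and for 6 other members with the median of the dissociation stress list (right, log scale). Maf and its 5 neighbours are higher in KO 2 and KO 3, whereas Mafk, Maff and the stress list are highest in KO 1 and lowest in KO 3.

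For genes that act with or downstream of the CNC factors, counts are read against all genes tested, of which 23.0% rose and 22.2% fell. For known NRF2 and small MAF targets, 5 of 23 rose and 7 fell, with a median log2 fold change of -0.21, against 0.04 over all genes tested, so both counts were near those shares. Ces2g, a carboxylesterase gene, had 84.9 ± 15.1 CPM in the KO and 217 ± 42.3 CPM in controls (log2 fold change -1.35, SE 0.166, edgeR adjusted p = 0.000275). Srxn1, of sulfiredoxin, fell to 14.2 ± 2.91 CPM in the KO, against 30.1 ± 2.72 CPM in controls. Ephx1, of microsomal epoxide hydrolase, rose 2.89-fold to 68.5 ± 14.0 CPM in the KO, against 23.7 ± 4.36 CPM in controls. The other rises, named after their values were seen, were Taldo1 (transaldolase), Tkt (transketolase), Pgd (phosphogluconate dehydrogenase) and Txn1 (thioredoxin), at log2 fold changes of 0.50, 0.41, 0.30 and 0.52. G6pdx, of glucose-6-phosphate dehydrogenase, which acts in the same pathway as Pgd, did not pass and had a log2 fold change of -0.24 (adjusted p = 0.178). Gclm and Txnrd1 were also named after their values were seen. The glutathione synthesis gene Gclm had 41.9 and 48.2 CPM in KO and control and did not pass (adjusted p = 0.0924), nor did Txnrd1 of thioredoxin reductase at 68.2 and 72.0 CPM (adjusted p = 0.558). Without KO 1 and KO 2 together, or without control 2 or control 3, the rises numbered 2, 3 and 3.

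Of 20 heme and iron genes, some of which BACH1 is known to repress, 10 fell and 3 rose, where 22.2% of all genes fell and 23.0% rose, at a median log2 fold change of -0.33, while 6 of the 20 are also on the NRF2 list. Slc40a1, the iron exporter ferroportin, fell to 104 ± 38.7 CPM in the KO, against 495 ± 6.73 CPM in controls (log2 fold change -2.25, SE 0.250, edgeR adjusted p = 0.000163). The heme transporter gene Slc48a1 had 53.8 ± 5.09 CPM in the KO and 101 ± 6.88 CPM in controls (log2 fold change -0.91, adjusted p = 0.000116). Biliverdin reductase B, Blvrb, and the heme synthesis gene Cpox fell by log2 values of 1.10 and 0.77. Hmox1, heme oxygenase, named after its values were seen, had 50.3 ± 9.20 CPM in the KO and 78.4 ± 10.2 CPM in controls (log2 fold change -0.64, adjusted p = 0.00671). Of the rises, Hpx encodes hemopexin, a plasma protein made by hepatocytes, and stood at 78.1 ± 59.6 CPM in the KO and 20.8 ± 9.73 CPM in controls. It was named after its values were seen. Hepatocyte markers, given above, were highest in KO 1 and KO 4, at 1501 and 701 summed CPM. They stood at 354 and 413 summed CPM in KO 2 and KO 3 and at 278 to 316 in controls. The part of hepatocytes in the Hpx value was not tested. With library totals 7 rose, and without control 1 or control 2 the rises numbered 1.

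Of 10 genes of NRF2 turnover 5 fell and the other 5 did not pass (median log2 fold change -0.20), where 45.2% of all genes were called and 22.2% fell. Sqstm1, of the KEAP1-binding autophagy receptor p62, had 293 ± 34.6 CPM in the KO and 459 ± 56.7 CPM in controls (log2 fold change -0.65, edgeR adjusted p = 0.00372). Cul3, the scaffold of the KEAP1 ligase, and Gsk3b, a kinase that marks NRF2 for degradation, fell by 0.52 and 0.48 on the log2 scale. Keap1 itself had 54.7 ± 5.65 CPM in the KO and 66.2 ± 2.12 CPM in controls (adjusted p = 0.0392). Its call was lost without any single library other than KO 3, at adjusted p values up to 0.112, and its log2 fold change was -0.01 with library totals. The list had 3 falls without any single library other than KO 3. For BACH turnover 3 of 4 tested genes fell, of 5 listed, among them Fbxl17, an F-box gene for BACH1 degradation, at -0.68 (adjusted p = 0.00139). Cul1, a scaffold of F-box ligases, was at -0.25 (adjusted p = 0.0312) and turned to 0.01 with library totals (adjusted p = 0.894). Its call was lost without control 1, control 2, KO 1, KO 2 or KO 4, at adjusted p values up to 0.121. The F-box gene Fbxo22 was at -0.43 (adjusted p = 0.0435), and its call was lost without any single library other than control 1, at adjusted p values up to 0.171. The list had 1 fall without control 2, KO 1, KO 2 or KO 4.

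Of 9 genes of NRF1 maturation and turnover 2 rose and 2 fell, where 23.0% of all genes tested rose and 22.2% fell. Both counts were near those shares. Most proteasome genes, known targets of NRF1, did not pass the test. Sel1l, of endoplasmic reticulum-associated degradation, fell by 0.88 and Ngly1, the deglycosylase that matures NRF1, by 0.65 on the log2 scale (edgeR adjusted p = 0.00107 and 0.000473). Ogt and Syvn1 rose by log2 values of 0.70 and 0.38, and the other 5 of 9 genes did not pass. Ddi2, the protease that cleaves NRF1, named after its values were seen, had 82.7 and 83.3 CPM in KO and control (adjusted p = 0.927). Of 34 proteasome genes 3 rose, 3 fell and 28 did not pass, fewer calls than the 45.2% of all genes. Their log2 fold changes ran between -0.39 and 0.27 around a median of 0.08. Psmd3 had 178 ± 8.41 CPM in the KO and 227 ± 12.2 CPM in controls, and Adrm1 79.9 ± 5.41 and 66.2 ± 2.76 CPM. The balance of this list depends on scaling, with 24 rises with library totals and 17 with upper-quartile factors. By edgeR no rise was left without control 1, control 2, control 3 or KO 2, and 5 were called without KO 3. With all libraries 7 were higher at an unadjusted p under 0.05, and DESeq2 and limma-voom called 2 each.

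Of 10 known NFE2 targets of platelets and red cells, 2 rose and 1 fell, fewer calls than the 45.2% of all genes, and the list's median log2 fold change was 1.54. Itga2b, an integrin of the platelet lineage, had 29.5 ± 3.92 CPM in the KO and 12.6 ± 1.38 CPM in controls (log2 fold change 1.23, edgeR adjusted p = 0.000154). Rab27b, a small GTPase of platelet granules, had 1.63 ± 0.777 CPM in the KO and 0.461 ± 0.295 CPM in controls (log2 fold change 1.83, adjusted p = 0.0202). Tbxas1, thromboxane synthase, fell by 0.98 (adjusted p = 0.00100). Of the 10 genes 5 are also erythroid markers and 2 platelet markers. Without KO 3 the list had 6 rises, without KO 2 it had 4 and without control 2 it had 1.

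**Figure D5:**
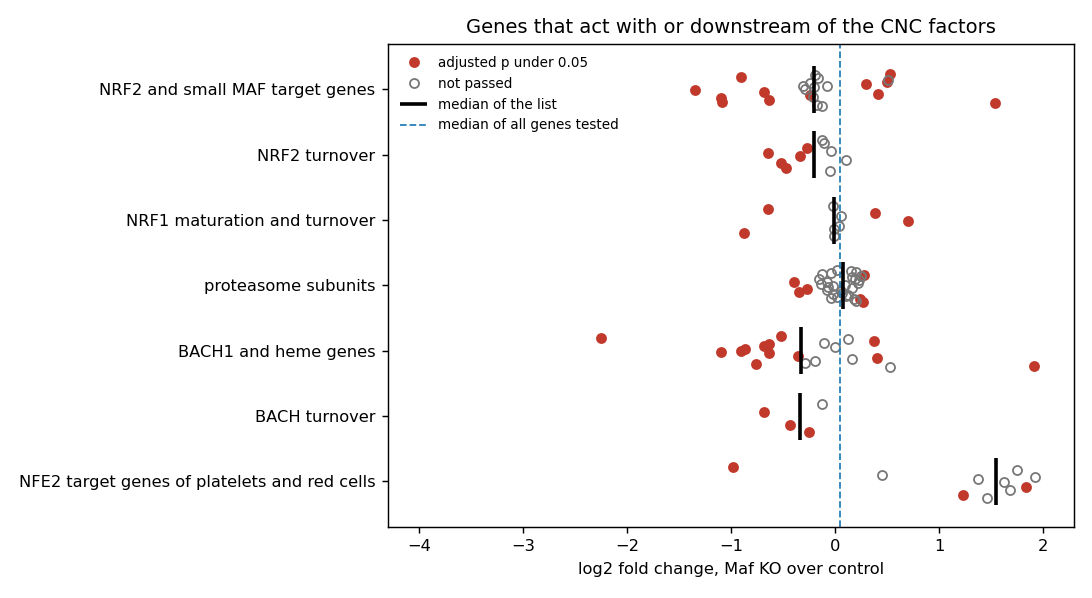
Log2 fold change, Maf KO over control, of every tested gene in 7 lists of genes that act with or downstream of the CNC factors, filled red where the adjusted p is under 0.05, with the list median (black bar) and the median of all genes tested (dashed line at 0.04). Proteasome genes lie between -0.39 and 0.27, while the heme list reaches -2.25 with Slc40a1.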

How the data were processed

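RNA sequencing of 7 mouse liver endothelial libraries, 4 Maf KO and 3 control, was read from the authors' deposited table of raw counts per gene. Reads were checked with FastQC 0.11.5 and aligned with STAR 2.7.6a to GRCm38, per the submitters' processing notes. The counting tool and its strand setting were not given in the sources used here. Libraries held 24772716 to 32960007 counts, and 3 counts equal 0.0873 to 0.132 CPM, which covers counting error only. Of 52636 gene IDs 52403 matched a symbol and 233 did not. Replicates differed by more than sampling noise, with a chi-square per degree of freedom of at least 14.9, so none was merged.

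Counts were filtered with filterByExpr (minimum count 10, minimum total 15), leaving 15512 genes, scaled by TMM and tested with the quasi-likelihood test of edgeR 4.0.16 (R 4.3.3), KO over control without covariates, with Benjamini-Hochberg adjustment at 0.05. The standard error was taken as the absolute log2 fold change over the square root of F. The procedure was tested on simulated data. Lengths for RPKM were merged exons of the GRCm38 annotation. Genes named were the members, genes that overlap them, up to 4 called genes of each pathway list with the smallest adjusted p and the 5 genes nearest to Maf. Pecam1, Fos, Jun and G6pdx were named outside this rule, and others are marked where named. The members and lists were chosen with earlier results of these data known. Alternatives were DESeq2 1.42.0, limma 3.58.1 voom, other scalings and filters, sequencing lane, a replicate block and each library left out; the lane was read from the library names in the labels. The result of 1 marker gene is not reported here.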

Additional observations from a re-analysis of the deposited data

Results flagged for a closer look

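In 2 of 14 groups of KO values tested for a sample that stands apart, 1 library lay further from the rest than Dixon's critical value of 0.829 allows. Chance flags about 1 in 20 such groups. Nfe2 stood at 0.466 CPM in KO 3, with a gap of 0.959 of the range to the nearest of the other KO libraries. The share of Maff in the small MAF sum was 8.07% in KO 3, with a gap of 0.886 of the range.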

How the results depend on the processing

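Maf, Mafg, Maff, Bach1 and Nfe2l1 kept their direction and their call under every alternative run. Leaving out each library in turn gave log2 fold changes of -4.95 to -4.20 for Maf, -1.09 to -0.90 for Mafg, 1.38 to 1.76 for Maff, 0.64 to 1.00 for Mafk, -1.06 to -0.89 for Bach1, -0.70 to -0.39 for Bach2, 1.74 to 2.22 for Nfe2, -1.08 to -0.83 for Nfe2l1 and -0.37 to -0.23 for Nfe2l2. The members' falls then numbered 4 to 6 and their rises 2 to 3. Bach2 missed the threshold with library totals (-0.30). Nfe2l2 passed with DESeq2 size factors (-0.31), a filter of 1 CPM in 3 libraries (-0.30), the DESeq2 Wald test (-0.31) and lane 5 alone (-0.43). It did not pass with upper-quartile factors (-0.16), library totals (-0.03) or no filter (-0.27). Nor did it with limma-voom (-0.29), lane as a covariate (-0.28) or the replicate block (-0.26). Chosen after seeing the data, leaving out KO 1 and KO 4 together, the libraries with the most hepatocyte markers, gave -0.50 for Bach2 and 1.56 for Nfe2, neither passing, and leaving out KO 1 and KO 2 gave 0.47 for Mafk, -0.56 for Bach2 and 1.61 for Nfe2, none passing, with 1 member rising. The cause of these changes was not tested, and the fits also had fewer libraries. Deviations from the group means correlated at -0.01, 0.14 and 0.04 between KO and control libraries of the same replicate number, 1 to 3. Over all pairs of a KO and a control library they ran from -0.244 to 0.145, the highest being number 2 with number 2. With so few libraries this cannot tell whether the numbers mark pairs. With the replicate block Bach2 (-0.53) and Nfe2 (1.69) missed the threshold, the proteasome list had 0 rises and 0 falls, the NRF2 turnover list 3 falls, the heme list 1 rise, the BACH turnover list 1 fall and the NFE2 target list 4 rises. With library totals the rises numbered 3 for NRF2 turnover, 7 for NRF1 maturation, 24 for the proteasome, 7 for heme genes and 6 for NFE2 targets, and the falls 1 for NRF2 turnover, 0 for the proteasome and 1 for BACH turnover, while Cul1 turned to 0.0116 on the log2 scale. With upper-quartile factors the falls numbered 3 for NRF2 turnover, 1 for the proteasome and 1 for BACH turnover, and the proteasome had 17 rises. Without a filter NRF2 turnover had 3 falls and NFE2 targets 6 rises, NFE2 targets had 4 rises with the DESeq2 Wald test and with lane as a covariate, and the proteasome had 1 rise in lane 5 alone. Without KO 1 and KO 4, NRF2 turnover had 3 falls, the proteasome 0 falls, heme genes 1 rise and BACH turnover 1 fall. Without KO 1 and KO 2, NRF2 targets had 2 rises, NRF2 turnover 3 falls, the proteasome 0 rises and 1 fall, BACH turnover 1 fall and NFE2 targets 1 rise. Leaving out each library gave 3 to 5 rises for NRF2 targets, 3 to 5 falls for NRF2 turnover, 0 to 5 rises and 1 to 4 falls for the proteasome, 1 to 3 rises for heme genes, 1 to 2 falls for BACH turnover and 1 to 6 rises for NFE2 targets. For the proteasome counts of 0, edgeR with all libraries had 7 higher and 3 lower at an unadjusted p under 0.05, and DESeq2 and limma-voom each called 2 higher and 3 lower. Precision is limited by 4 and 3 libraries, and for Nfe2 by 7 to 58 counts per library.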
